A study of Homo sapiens with 2 samples.

Results

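The 9 genes described here are normally switched on at the cleavage stage of the human embryo or in the germ line, and are known to respond to the transcription factor DUX4: TRIM43, TRIM43B, TRIM49C, TRIM49D1, TRIM49D2, MBD3L2, PRAMEF1, KDM4E and CCNA1. They were chosen by symbol from the 425 rows of the authors' deposited table, after the ratio of their 2 expression values had been seen, so their direction is a description and no test is made of it. RNA came from HES2, an established human embryonic stem cell line, in 2 cultures: the control expressed PB, a name left unexplained in the labels, and the other PB-Tfcp2l1ΔCP2, a Tfcp2l1 form whose name points to a missing CP2 region. Whether either culture was a single clone is not stated. TFCP2L1 has no row in the table, so the construct could not be checked from the values. Both cultures had 2 passages in medium with 10% KSR and with FGF2 and Activin A at 10 ng/ml each. With 1 library per group there is no replicate check, and the values below describe these 2 libraries.

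DUX4 is a double homeobox factor that acts briefly in the cleavage-stage embryo, around the time the embryo starts to use its own genome. Its targets include several families that exist as many near-identical copies, such as the TRIM43 and TRIM49 genes (RING-finger proteins of the tripartite motif class), the PRAMEF genes and the MBD3L genes. Embryonic stem cell cultures correspond to a later stage and hold this programme at low levels. TFCP2L1, of the CP2/grainyhead family, is known as a factor of the naive pluripotent state.

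Most of these genes were lower in the PB-Tfcp2l1ΔCP2 library. Of the 9, 8 were lower and 1, TRIM49D1, was higher, while 52.7% of all listed rows were lower, a share from which nothing is read because the ratio chose the genes. The TRIM43 pair together fell from an expression value of 7.36 to 2.86, and the 3 TRIM49 copies together from 4.19 to 1.56. CCNA1, the most highly expressed of the 9, went from 8.63 to 3.98. The single increase was in a gene whose coding sequence is identical to that of TRIM49D2, which was lower.

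**Figure D1:**
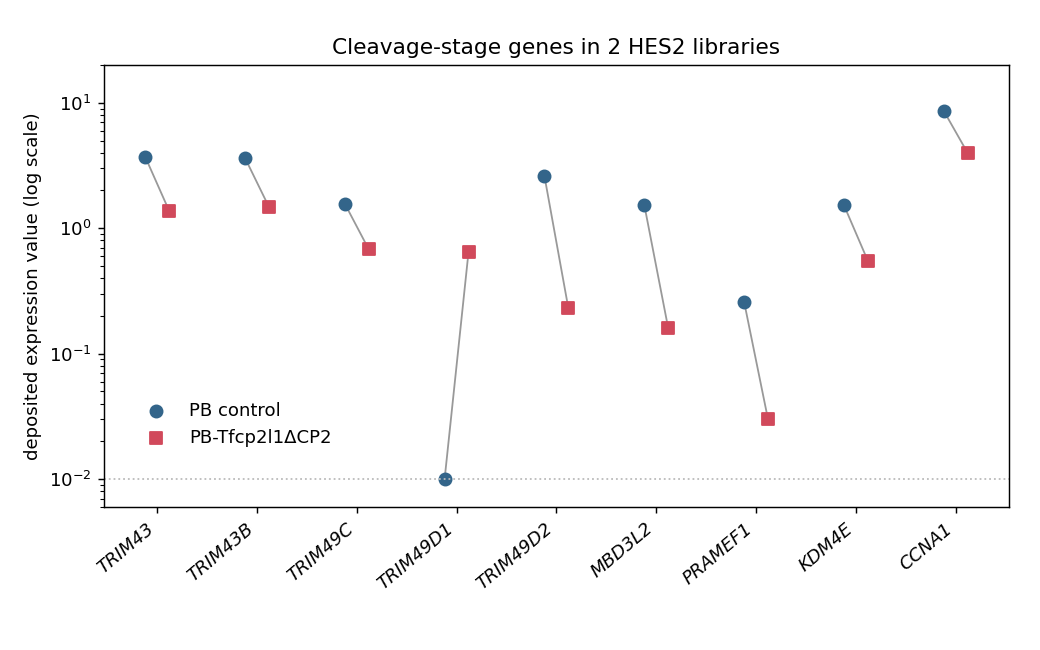
Deposited expression value (log axis, unit not named in the table) of each of the 9 genes in the PB control (circles) and the PB-Tfcp2l1ΔCP2 library (squares), with the dotted line at 0.01, the lowest value the table gives. The control is the higher library for 8 genes, and TRIM49D1 goes from 0.01 to 0.65.

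Sequence comes first, because it sets what a short read can tell. Coding sequences were taken from GENCODE release 29 (GRCh38), and the stretch of 90 bases within 1 exon that holds the most differences between copies is shown, in the direction of the gene, with differing bases in capitals. TRIM43 and TRIM43B, neighbouring protein-coding genes on chromosome 2, have coding sequences of 1341 bases that differ at 7 positions (99.5% identical). Positions 317 to 406 of the coding sequence, counted from the start codon, hold 2 of the 7:
TRIM43 (chr2:95594340-95594429, plus strand): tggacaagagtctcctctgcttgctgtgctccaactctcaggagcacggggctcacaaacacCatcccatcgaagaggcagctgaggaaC
TRIM43B (chr2:95482309-95482398, minus strand): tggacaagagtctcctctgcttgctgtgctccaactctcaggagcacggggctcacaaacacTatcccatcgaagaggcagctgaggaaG

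The TRIM49 genes lie on chromosome 11, where TRIM49D1 and TRIM49D2 are neighbours on opposite strands. Their coding sequences of 1359 bases are identical at every base, and TRIM49C differs from both at 110 positions (91.9% identical). Positions 872 to 961 hold 19 of these differences, and show TRIM49C apart from a pair that cannot be told from each other:
TRIM49C (chr11:90041063-90041152, plus strand): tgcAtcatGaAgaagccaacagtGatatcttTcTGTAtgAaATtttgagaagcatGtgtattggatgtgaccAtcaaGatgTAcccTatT
TRIM49D1 (chr11:89911985-89912074, minus strand): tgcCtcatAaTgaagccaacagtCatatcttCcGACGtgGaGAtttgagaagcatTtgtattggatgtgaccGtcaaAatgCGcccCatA
TRIM49D2 (chr11:89932398-89932487, plus strand): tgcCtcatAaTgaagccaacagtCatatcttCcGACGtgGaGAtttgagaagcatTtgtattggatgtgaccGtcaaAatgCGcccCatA

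Each coding sequence was then cut into all windows of 50 bases, and every GENCODE transcript was searched for them. The read length is not given in the sources used here, so the window is a chosen size. All 1310 windows of TRIM49D1 and of TRIM49D2 were found in a transcript of another gene. In the whole GENCODE transcripts, no window of TRIM49D2 was missing from TRIM49D1, while 25.9% of TRIM49D1 windows were missing from TRIM49D2. The authors' lengths are 1474 bases for TRIM49D1 and 1651 for TRIM49D2, and their processing notes name hg19. The gene models behind their values may thus differ from these. MBD3L2 shared 97.4% of its coding windows, all of them with MBD3L2B, and 76.5% also with MBD3L3, MBD3L4 and MBD3L5. TRIM49C shared 85.1% (84.1% with TRIM49), TRIM43B 83.0%, TRIM43 81.3% and PRAMEF1 64.5%. KDM4E shared 26.4%, nearly all with KDM4F, and CCNA1 shared none of 1349 windows. How the authors divided reads that match several genes is not given in the sources used here, so the value of a single TRIM, MBD3L or PRAMEF gene is uncertain, and that of CCNA1 is the one least exposed to such sharing.

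**Figure D2:**
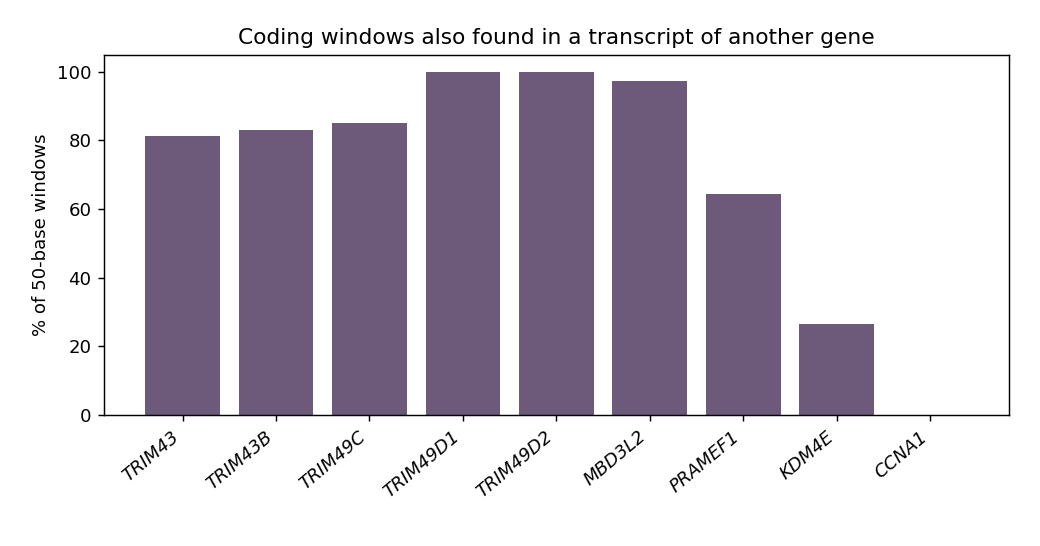
Percentage of the 50-base windows of each coding sequence that also occur in a GENCODE transcript of another gene (bars from 0). TRIM49D1 and TRIM49D2 are at 100%, KDM4E at 26.4% and CCNA1 at 0.

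TRIM43 (Gene ID 129868) had an expression value of 3.72 in the control and 1.38 with PB-Tfcp2l1ΔCP2. It encodes a tripartite motif protein that is a standard marker of DUX4 activity. The deposited p-values could be solved for whole reads, which gave 142 and 53 reads. After the ratio of library totals of 1.02, these were 2.74-fold lower with PB-Tfcp2l1ΔCP2 (95% counting interval 1.99 to 3.83). Counting intervals here are exact conditional binomial ones and cover counting error only, not the spread between cultures. TRIM43B (Gene ID 653192) went from 3.64 to 1.48 on 137 and 57 reads, or 2.46-fold lower (1.79 to 3.41). The control was higher for both copies, and their intervals overlap over most of their width.

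Summed, the TRIM43 pair dropped from 279 to 110 reads, 2.59-fold lower (2.07 to 3.27). On the log2(value + 1) scale, which shrinks differences between low values, the summed values differed by -1.11. Each copy was given about the same share of the pair's reads in both libraries, though 80.7% of TRIM43 coding windows also occur in TRIM43B. TRIM43B took 49.1% of the pair's reads in the control (95% exact binomial interval 43.1 to 55.1) and 51.8% in the other library (42.1 to 61.4). If the authors counted a shared read for both copies, the sums count it more than once and their intervals are too narrow. The rows of BOLA2 and BOLA2B, picked after the values were seen, are equal, with values of 4.44 and 11.3 and 98 and 256 reads each. How shared reads were divided in the TRIM43 pair was not tested.

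TRIM49C (Gene ID 642612), which encodes another RING-finger protein of this class, went from 1.57 to 0.68 on 77 and 34 reads. This was 2.32-fold lower (1.53 to 3.58). Its control value is thus below that of either TRIM43 copy, and its fold lies within the intervals of both.

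TRIM49D2 (Gene ID 729384) went from 2.61 to 0.23 on 97 and 8 reads. By reads it was 12.4-fold lower (6.05 to 29.5). By the ratio of values it was 11.3-fold lower, the lowest log2 ratio of the 9 genes (-3.50 in the authors' deposited table). TRIM49D1 (Gene ID 399939) went the other way, from the table's lowest value of 0.01 to 0.65, on 0 and 21 reads. With the control put at 3 counts, the limit used here for a library with no read, this was 6.84-fold higher. The exact interval starts lower, at 5.09. Rows with the same coding sequence thus had opposite directions, and the authors' table also gives both the same protein description.

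Taken as 1 measurement, the TRIM49D pair dropped from 97 to 29 reads, 3.42-fold lower (2.24 to 5.37). TRIM49D1 held none of the pair's 97 control reads, where 3 counts would be a share of 3.09%. It held 72.4% of the 29 reads in the other library (exact interval 52.8 to 87.3). The split between these copies therefore moved by far more than that of the TRIM43 pair, while the joint level of both pairs was lower. Whether the move lies in transcription or in how reads were assigned was not tested.

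**Figure D3:**
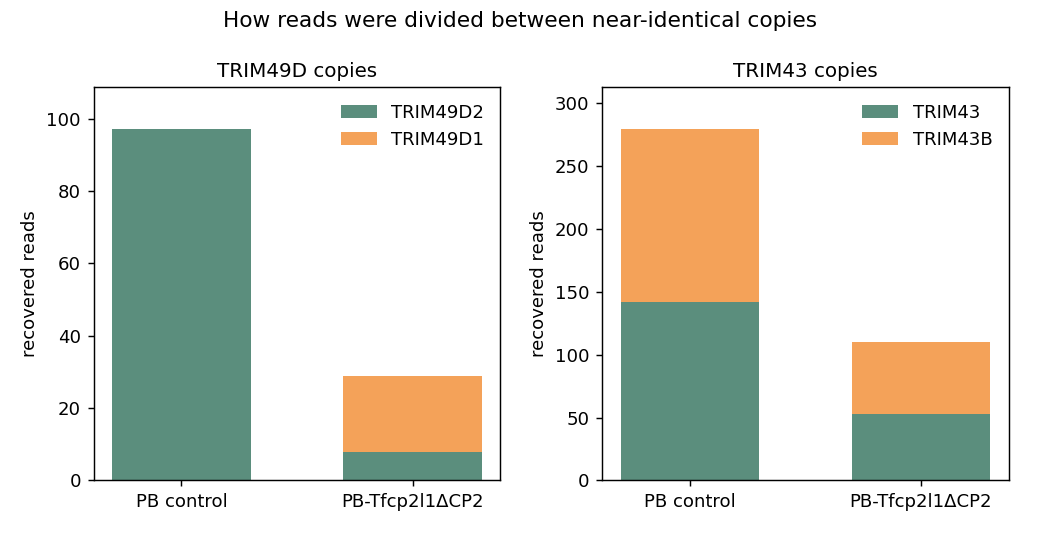
Recovered reads (stacked bars from 0) of TRIM49D2 and TRIM49D1 on the left and of TRIM43 and TRIM43B on the right, in the PB control and the PB-Tfcp2l1ΔCP2 library. The TRIM49D total drops from 97 to 29 and changes its main copy, while the TRIM43 total drops from 279 to 110 with both copies close to equal.

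With TRIM49C added, the 3 TRIM49 copies had 174 and 63 reads, 2.83-fold lower (2.11 to 3.83). The difference of the summed values was -1.02 on the log2(value + 1) scale. Leaving TRIM49D1 out gave 174 and 42 reads and 4.24-fold lower (3.01 to 6.09), so the copy listed as higher moves the size of this sum and not its direction. The joined TRIM49 and TRIM43 folds lie within each other's intervals.

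MBD3L2 (Gene ID 125997, chromosome 19, between MBD3L4 and MBD3L3), a relative of the methyl-CpG-binding protein MBD3 that lacks the methyl-binding domain, went from 1.54 to 0.16. Its reads were 25 and 2, which is 12.8-fold lower. The interval, 3.19 to 111, is the widest among genes with reads in both libraries, and the low number of reads sets that width. By the ratio of values it was 9.63-fold lower. At the usual number of reads per unit and kilobase, its values correspond to 27.4 and 2.92 reads. Since 97.4% of its coding windows also belong to MBD3L2B, the row may hold reads of either gene.

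PRAMEF1 (Gene ID 65121, chromosome 1, between PRAMEF12 and PRAMEF11), of the leucine-rich PRAME family, had values of 0.26 and 0.03. The only pair of whole reads that gives its p-value is 12 and 0, or 4.09-fold lower with the empty library put at 3 counts. The exact interval starts nearer to no change, at 2.84. These reads and the values do not match: at the table's usual number of reads per unit and kilobase, the values correspond to 8.79 and 1.04 reads. It is the gene with the least evidence of the 9, and in the authors' deposited table its FDR, 0.000984, is the largest of all rows.

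KDM4E (Gene ID 390245, chromosome 11, between KDM4D and KDM4F), a histone demethylase that acts on lysine 9 of histone H3, had values of 1.53 and 0.55. On 101 and 37 reads it was 2.79-fold lower (1.90 to 4.19). Fewer of its windows are shared than for the TRIM, MBD3L and PRAMEF genes. CCNA1 (Gene ID 8900, chromosome 13) encodes cyclin A1, the A-type cyclin of the germ line, and its values of 8.63 and 3.98 rest on 386 and 182 reads. It was 2.17-fold lower (1.81 to 2.60), with the narrowest interval of the 9. In bulk RNA, fewer cells that express a gene and less RNA in each cell cannot be told apart, here and for the other genes.

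**Figure D4:**
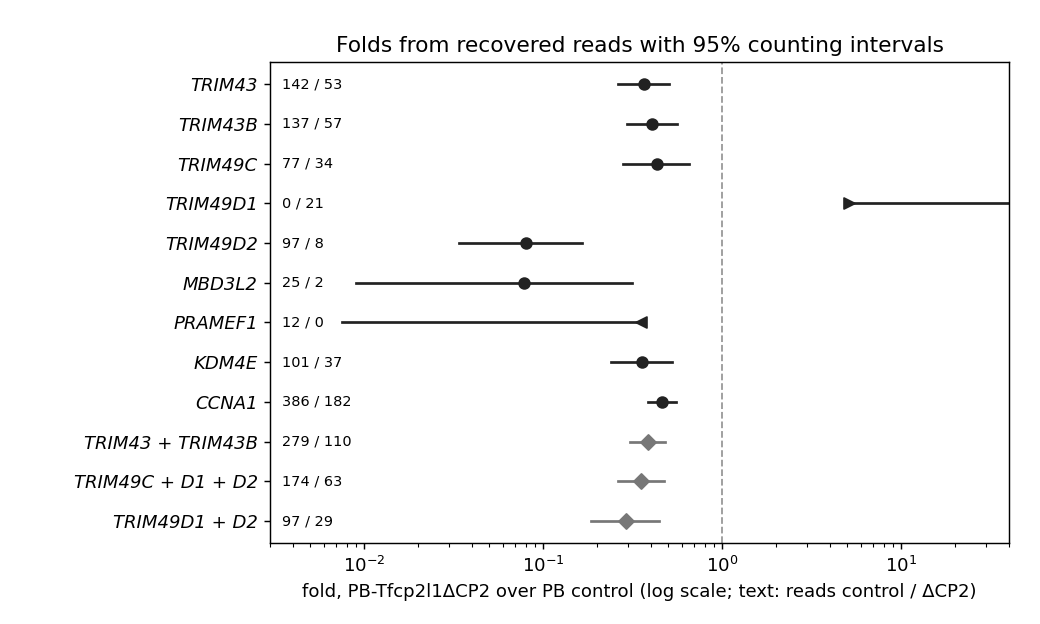
Fold of the PB-Tfcp2l1ΔCP2 library over the PB control (log axis) from recovered reads, with 95% exact counting intervals, for each gene (circles) and for joined copies (diamonds). Arrowheads mark the finite end of an interval where 1 library had no read, the numbers at the left are reads in the control and in the other library, and all intervals except that of TRIM49D1 lie below 1.

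By point value, the 7 lower genes with reads in both libraries fell into 2 ranges. TRIM43, TRIM43B, TRIM49C, KDM4E and CCNA1 lay between 2.17-fold and 2.79-fold lower, and the interval of each holds the point values of the other 4, except that the interval of CCNA1 (1.81 to 2.60) leaves out TRIM43 and KDM4E. TRIM49D2 and MBD3L2 lay at 12.4-fold and 12.8-fold. MBD3L2 had only 25 and 2 reads, and all windows of TRIM49D2 in the GENCODE transcripts also occur in TRIM49D1. Joined, the TRIM49D pair was 3.42-fold lower (2.24 to 5.37), and this interval overlaps with those of all 5 genes. Taken alone, TRIM49D2 had an interval from 6.05, which does not meet those of the 5 genes. That of MBD3L2, from 3.19, overlaps with those of TRIM43, TRIM43B, TRIM49C and KDM4E. At 4-fold or more by the ratio of values, 3 of the 9 genes (TRIM49D2, MBD3L2 and PRAMEF1) were lower, against 12.2% of all listed rows. On the log2(value + 1) scale 2 of the 9 (TRIM49D2 at -1.55 and MBD3L2 at -1.13) were at least 2-fold lower, against 11.5% of listed rows. Nothing is read from these shares either.

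The values scale with reads per kilobase of gene (medians of 23.0 and 23.6 reads per unit and kilobase over all rows), so they can be set beside each other. Over the 9 genes 977 reads were recovered in the control and 394 in the other library. Among themselves the values kept a similar order in both libraries, apart from the TRIM49D copies and MBD3L2. In the control CCNA1 came first, followed by TRIM43 and TRIM43B, whose counting intervals (3.13 to 4.38 and 3.06 to 4.30) overlap almost fully. TRIM49D2 came next (2.12 to 3.18). TRIM49C, MBD3L2 and KDM4E, at 1.57, 1.54 and 1.53, did not differ beyond counting error, and PRAMEF1 and TRIM49D1 were last. In the PB-Tfcp2l1ΔCP2 library CCNA1 was again first at 3.98 (3.42 to 4.60), then TRIM43B at 1.48 and TRIM43 at 1.38. TRIM49C, TRIM49D1 and KDM4E, between 0.55 and 0.68, did not differ beyond counting error. Below them came TRIM49D2 at 0.23, MBD3L2 at 0.16 and PRAMEF1 at 0.03. The interval of MBD3L2 (0.0194 to 0.578, on 2 reads) still overlaps those of TRIM49C and KDM4E. A value of 1 or more was reached by 7 of the 9 genes in the control and by 3 in the other library. Nothing is read from this drop, because the ratio chose the genes and the same count over all listed rows was not made.

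**Figure D5:**
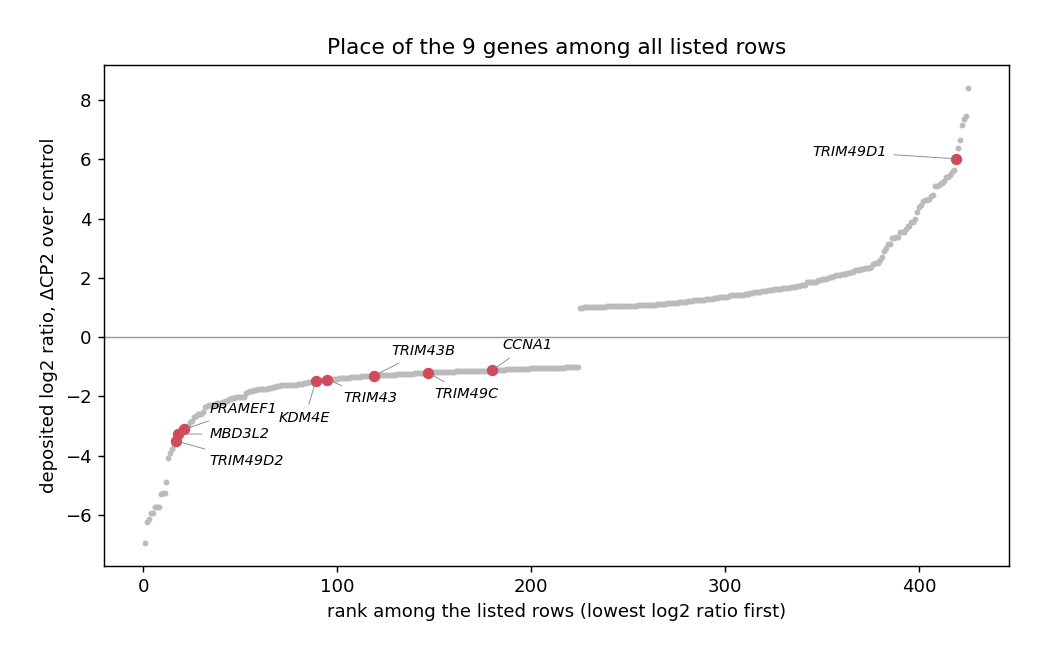
Log2 ratio from the authors' deposited table (vertical axis) against rank for all 425 listed rows (grey), with the 9 genes in red. TRIM49D2, MBD3L2 and PRAMEF1 hold ranks 17, 18 and 21 from the lowest, the other 5 lower genes lie between ranks 89 and 180, and TRIM49D1 is at rank 419. No row lies between -1 and 1, since the table lists called genes only.

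The median log2 ratio of the 9 genes was -1.43. It was -1.33 over the 224 rows that were lower and -1.03 over all 425. With 2 libraries, likeness of pattern comes down to likeness of this ratio. Nearest to the TRIM43 sum (-1.36) were S100A10, RARG and KDM6B, nearest to the TRIM49 sum (-1.43) were ENTPD2, DMTN and AADACL3, and nearest to CCNA1 (-1.12) were NCAM1, GPRC5C and CASZ1. Their values ranged from 0.73 for AADACL3 to 52.1 for S100A10 in the control.

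RefSeq promoters (assembly GRCh38.p14, 250 bases before an annotated start) were at hand for 6 of the 9 genes, with 8 starts in all. TRIM43, TRIM43B and KDM4E had no entry. A DUX4-like motif was searched on both strands: the bases TAA, then 3 free bases, then AATCA. It occurs in 3 of the 8 promoters, those of MBD3L2, TRIM49D2 and 1 of 2 starts of TRIM49D1, and in 0.817% of all 35116 promoters. The TRIM49D1 and TRIM49D2 promoters share an unbroken run of 176 bases, so they are no separate cases. The 3 promoters are shown in the direction of the gene with matches in capitals:
MBD3L2 (chr19:7049071-7049320, plus strand): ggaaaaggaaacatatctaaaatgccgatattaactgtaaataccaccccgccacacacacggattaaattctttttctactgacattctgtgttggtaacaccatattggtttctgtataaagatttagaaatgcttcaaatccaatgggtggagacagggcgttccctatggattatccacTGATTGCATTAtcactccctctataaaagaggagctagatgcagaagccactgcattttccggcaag
TRIM49D2 (chr11:89923814-89924063, plus strand): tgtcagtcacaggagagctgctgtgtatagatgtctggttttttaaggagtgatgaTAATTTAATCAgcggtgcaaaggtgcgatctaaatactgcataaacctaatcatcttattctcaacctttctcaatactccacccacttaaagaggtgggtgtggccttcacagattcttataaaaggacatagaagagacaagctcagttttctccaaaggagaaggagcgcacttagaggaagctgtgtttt
TRIM49D1, second start (chr11:89920448-89920697, minus strand): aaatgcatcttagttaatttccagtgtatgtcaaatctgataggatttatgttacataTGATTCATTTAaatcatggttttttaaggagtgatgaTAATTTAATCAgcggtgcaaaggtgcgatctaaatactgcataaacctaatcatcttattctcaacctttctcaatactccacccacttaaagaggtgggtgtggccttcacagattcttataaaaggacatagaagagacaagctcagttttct

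The match in MBD3L2 lies on the reverse strand, 67 to 57 bases before the start, and that in TRIM49D2 on the forward strand, 194 to 184 bases before it. A CP2-like motif (CCNG, 6 free bases and CCNG again) was found in 1 of the 8 promoters, that of CCNA1, against 34.8% of all promoters. TATAAA was found in 4 of the 8, against 10.7%. Its matches in TRIM49D2 and in the second start of TRIM49D1 lie in their shared run, so they are no separate cases either. In these promoters no match of one motif overlaps a match of another. A match is only a run of letters, and none of these libraries measured binding.

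A wider list of 62 cleavage-stage and DUX4-responsive genes held 10 listed genes (2.33% of all genes tested were listed): the 9 above, which the ratio chose, and YPEL2, which went from 1.10 to 0.47 (2.34-fold lower, 1.71 to 3.23). YPEL2 is all that the wider list adds to the 9. DUX4 itself, ZSCAN4, LEUTX, DUXA and the other genes of the list were not among the rows, and their values were not analysed here. Of 20 oocyte and maternal-effect genes 3 were listed, each of them lower, beside 52.7% of all listed rows; 3 genes are too few to give a direction for the list. NLRP7, an inflammasome-family gene of the oocyte, went from 2.99 to 0.52 on 234 and 40 reads (5.98-fold lower, 4.26 to 8.59). TLE6, a subunit of the subcortical maternal complex, went from 1.16 to 0.44 (2.63-fold lower, 1.56 to 4.58), and DPPA3 from 5.08 to 1.92 (2.67-fold lower, 1.88 to 3.83).

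Of 16 germ cell and testis genes, a list that leaves out CCNA1, 2 were listed, both higher, beside 47.3% of all listed rows, and the other 14 were not analysed here. Germ cell genes outside the list went both ways. SYCE1 was lower, at 0.88 and 0.14, and SOHLH2 higher, at 0.23 and 0.76, both picked after their values were seen. MAGEA4 went from 0.54 to 6.73, and PRAME, the founding member of the family that holds PRAMEF1, from 0.01 to 0.42 on 0 and 21 reads. PRAME and PRAMEF1 thus went opposite ways. No gene of 11 other cyclins, 8 other JmjC H3K9 and H3K36 demethylases or 8 other MBD-family genes was listed. These relatives of CCNA1, KDM4E and MBD3L2 thus cannot be set beside them here. KDM6B, a JmjC histone demethylase outside these lists, was listed and lower, at 5.32 and 2.07 on 849 and 336 reads.

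For the cell type, none of 10 markers of human embryonic stem cells was among the listed rows, so the label could not be checked from their values. ZFP42 (REX1), a pluripotency gene outside that list and picked after its values were seen, was listed and lower, at 5.08 and 1.99 on 312 and 126 reads. All 6 mesendoderm markers were listed and higher in the PB-Tfcp2l1ΔCP2 library, from MIXL1 (2.68 to 7.27) to FOXA2 (0.01 to 0.37). Of all genes tested 2.33% were listed, and 47.3% of listed rows were higher. The marker lists were drawn up with earlier results of these data known, so nothing is read from these shares. GATA5, outside the list and picked after its values were seen, was lower, at 0.99 and 0.29 on 59 and 18 reads. Of 5 fibroblast markers COL1A1 was listed, at 41.6 and 18.0, and no neural (3 genes) or trophoblast marker (4 genes) was. Their part in the lower values of the 8 genes was not tested.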

How the data were processed

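Per the labels' protocols, Trizol-extracted RNA of 2 HES2 cultures was read on the BGISEQ-500. Bowtie 0.12.2 and hg19 are named, without a role, per the submitters' processing notes; for the gene counter, annotation and test the sources used here give no name. Per the file headers, the authors' deposited expression values are a signal whose unit is not named (lowest value 0.01), beside a length in bases, and each row also has a deposited p-value, FDR and log2 fold change. The deposited log2 fold change is the log2 ratio of the values, without pseudocount. The table lists 425 called genes, of 18250 tested as the ratio of FDR to p-value shows; 3482 genes ranked above the last listed one have no row and were not analysed here. The authors' deposited p-values compare reads of 2 libraries, not conditions. No value column belonged to another sample.

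The p-values were solved for whole reads under the Audic and Claverie formula (relative tolerance 5e-06, within 10 to 60 reads per unit and kilobase and within about 1 read and 15% of the value ratio). A ratio of library totals of 1.02 was found first. This gave 1 pair of reads in 417 of 425 rows (98.1%), the 9 genes included, with medians of 79 and 73 reads. The step was tried on simulated reads made with the same formula and ratio, and with equal reads per unit in both libraries. Of 100 genes each, it found the reads of 100% at 3-fold and 97% at 8-fold lower, with 0 wrong. It cannot show that the authors used this formula. The totals themselves were not used here, only their ratio, which enters every fold.

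Differences are on the log2(value + 1) scale; folds use recovered reads, with exact conditional binomial 95% intervals. No test across conditions was possible. Named genes are the 9, the listed genes of the lists, and the 3 nearest in ratio to the TRIM43 sum, the TRIM49 sum and CCNA1. Members and lists were chosen with earlier results of these data known. Python 3.11.15, scipy 1.17.1 and Biopython 1.88 were used.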

Additional observations from a re-analysis of the deposited data

How the results depend on the processing

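No paired analysis was possible because there was only 1 library of each kind. All 52 alternatives for single genes kept the gene's direction, which was fixed in advance. A pseudocount cannot reverse it, and recovered reads were held near the value ratio. The largest scaling shift, 1.03, falls short of the lower ratio nearest to no change, -1.12 for CCNA1. With median-of-ratios scaling CCNA1 came to -0.07 and TRIM49C to -0.09. Of the 52, 21 moved the gene's size beyond its counting error or, for the 2 genes with an empty library, by any amount. The TRIM43 sum (-1.11) was -0.65 with a pseudocount of 5 and -0.27 with median-of-ratios scaling. The TRIM49 sum (-1.02) was -0.49 and -0.28 under these, and -1.50 on recovered reads. The median difference of the 9 genes (-0.90) was -1.03 with a pseudocount of 0.5, -0.34 with 5, -1.43 without one, -0.66 after scaling by summed listed values and -0.19 with median-of-ratios scaling. Those scalings shift all log2 ratios upward by 0.34 and 1.03 and rest on called genes only, so the shift follows from their construction. The 8 lower genes became 1 where a value of at least 5 was required and 3 where 4-fold was; the 1 higher gene became 0 at a minimum value of 1 or of 5, with copies counted as 1 measurement, and with 50 or more reads. The 2 genes at least 2-fold lower on the log2(value + 1) scale became 5 with a pseudocount of 0.5, 0 with 5, 8 without one and 1 with median-of-ratios scaling; this count and the other joinings of the TRIM49 copies were added after seeing the data. Depth limits MBD3L2, PRAMEF1 and TRIM49D1 most, which rest on 27, 12 and 21 reads.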

Other observations

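Another pair of rows with overlapping genes had opposite directions, with no read in 1 library each; it was picked after the values were seen. How reads were assigned to it was not tested. TRIM34, an interferon-responsive tripartite motif gene, had 0 and 23 reads, and the read-through gene TRIM6-TRIM34, which contains it, had 30 and 0. The control reads of both rows sum to 30 and those of the PB-Tfcp2l1ΔCP2 library to 23. TRIM22, a relative outside the TRIM43 and TRIM49 families, went from 1.92 to 0.75. In all, 19 rows were at the lowest value in the control and 12 in the other library.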
